A study of Mus musculus with 48 samples.

Results

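The genes described here are 10 genes of the NRF2 pathway and the cellular defense against oxidative stress, Srxn1, Txnip, Hmox1, Nqo1, Gclc, Gclm, Txnrd1, Slc7a11, Nfe2l2 and Keap1, in the hippocampus of mice after chronic intermittent ethanol. A probe set counted for a gene when that gene's symbol was the only one the platform annotation gave it, and each gene was followed by its probe set with the highest mean over all 48 arrays. All 10 genes were measured, out of 18193 genes with a probe set of their own, and between them they had 21 probe sets. Every value is a log2 expression level normalized by the authors, so a difference of 1 is a doubling, and levels of different probe sets cannot be set against each other.

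The study asked how gene expression in the brain changes over the first days after a history of ethanol dependence. Adult male C57BL/6J mice of the chronic intermittent ethanol (CIE) group spent 16 h of each of 4 days in ethanol vapor (10 to 13 mg/l) and then 7 days without ethanol, a cycle run 4 times. Before every cycle they were injected with 1.6 g/kg ethanol and with 1 mmol/kg pyrazole, an inhibitor of alcohol dehydrogenase. Control (Ctrl) mice were handled alike but breathed air only and received saline with the same dose of pyrazole, so pyrazole was common to all groups. Counting time since the final exposure, harvests were at 0 h, 8 h, 72 h and 7 d, which made 8 treatment-by-time groups of 6 mice with 1 array per mouse. The levels are those of the whole dissected hippocampus, in which a change in the share of a cell type and a change of RNA within its cells cannot be told apart.

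NRF2, the transcription factor encoded by Nfe2l2, is held in the cytoplasm by its sensor KEAP1 and sent for degradation. Oxidants and electrophiles modify KEAP1, and NRF2 then reaches the nucleus, pairs with small MAF proteins and binds antioxidant response elements near its target genes. Among these targets are the enzymes that make glutathione (Gclc, Gclm), the cystine importer (Slc7a11), the thioredoxin system (Txnrd1, Srxn1), the quinone reductase Nqo1 and the heme oxygenase Hmox1. Txnip encodes an arrestin-like protein that binds and inhibits thioredoxin and restrains glucose uptake, and it is best known as a gene induced by glucose and glucocorticoids.

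The median of an array lay between 6.60 and 6.63, which the authors' quantile normalization over all arrays brings about. Correlations between arrays were 0.974 to 0.998. Tissue content was not even by its markers. The summed level of 5 choroid plexus markers ran from 8.40 in a Ctrl 7 d mouse to 12.8 in a CIE 8 h mouse (log2 scale). The 5 neuronal markers (Rbfox3, Snap25, Syt1, Map2, Tubb3) and the 6 of hippocampal fields (Prox1, Wfs1, Zbtb20, Neurod2, Spink8, Calb1) were high, the lowest of them, Tubb3, with a percentile of 78.3 among probe set means. The deposited values hold a trace of how arrays were grouped, because 47 of the 48 arrays fell into 6 sets whose arrays had at least 10 values in common to within 1e-08, while arrays of different sets shared 1 at most. Every group had a mouse in every set but for Ctrl 0 h, which was missing from 1 set and whose mouse 2 belonged to none. What the sets stand for is not given in the labels.

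Where members of the group passed the test, they were higher in CIE than in Ctrl hippocampus and at the early harvests. At 0 h, 2 of the 10 genes passed the test (limma, adjusted p of 0.01 or less over all 45037 probe sets), Txnip and Srxn1, both higher in CIE, against 1.64% of all genes. At 8 h, 4 of 10 passed, Txnip, Srxn1, Gclc and Gclm, again all higher in CIE, against 2.29% of all genes. The members were chosen with earlier results of these data known, so their shares here and below are a description. The 10 genes had a median change of 0.17 at 0 h and 0.29 at 8 h, and later of 0.02 (72 h) and -0.01 (7 d), beside medians over all genes of 0.04, 0.01, 0.01 and 0.03 at the same harvests. At 72 h the limma test called 0 of 10 members and 0.0055% of all genes, while 4 members had an unadjusted p under 0.05, as did 7.57% of all genes. At 7 d it called 0 of 10 members and 1.03% of all genes, and 4 members had an unadjusted p under 0.05, as did 18.7% of all genes.

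**Figure D1:**
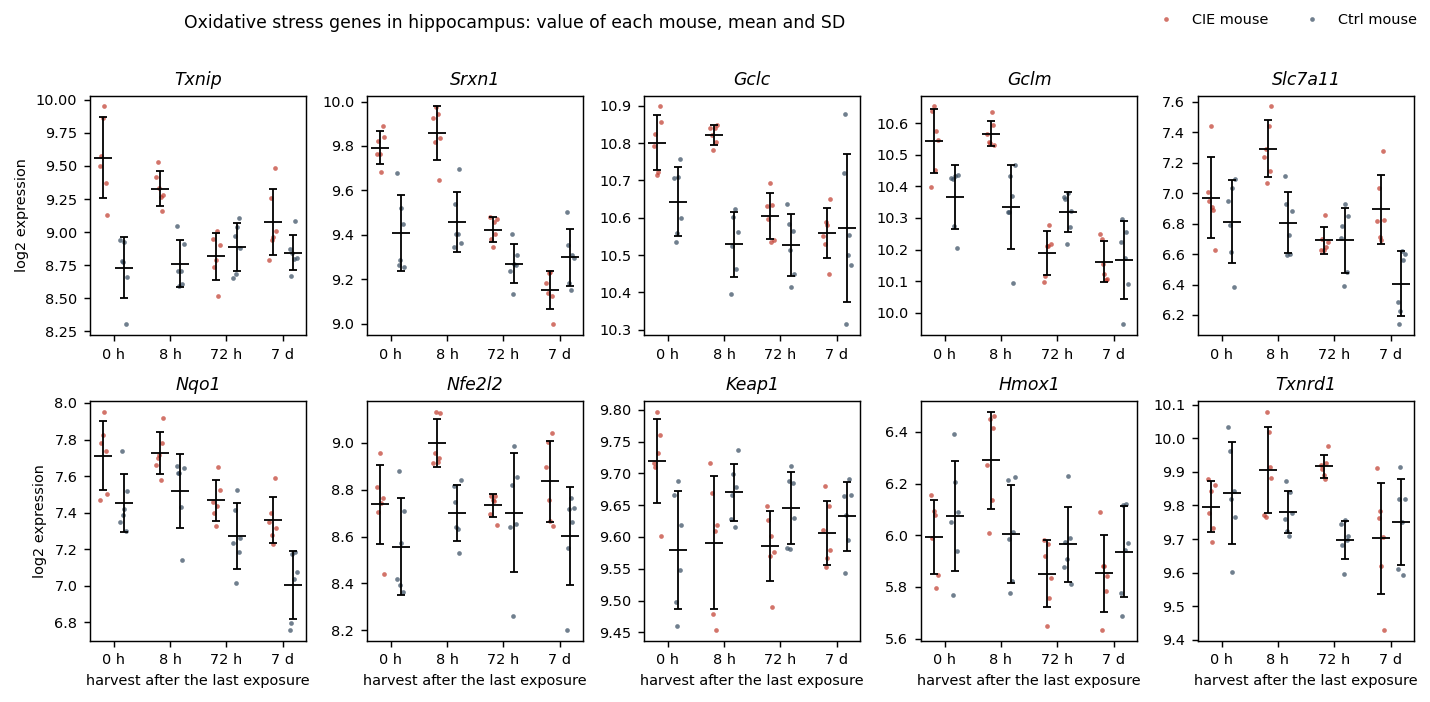
Log2 expression of the 10 genes in each of the 48 mice (points, CIE left of Ctrl) by harvest, with group mean and SD (n = 6). Txnip and Srxn1 lie highest in CIE mice at 0 h and 8 h, and the vertical scale differs between panels.

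The promoters of the 10 genes were read for the motif that NRF2 binds. RefSeq (GRCm38.p6) gave promoters for 8 of the 10 genes, 10 windows in all from 250 bases before to 50 after a start site, with Hmox1 and Gclc not among them. The core of the antioxidant response element, TGACNNNGC on either strand, stood in 4 of these 10 windows. They belong to Srxn1, Gclm, Nfe2l2 and Txnrd1 (1 of its 3 windows). Of 32851 mouse promoter windows of the same length, 12.4% held it. Of these 4 genes, Srxn1 and Gclm passed the test at 8 h, and their windows are shown with the core in capitals. Srxn1 holds it as GCTAGGTCA with its first base at position 28 from the start site, and also holds the AP-1 motif TGACTCA, read on the other strand as TGAGTCA, at positions -102 and -45, likewise in capitals. The AP-1 motif stood in 5.2% of all windows and does not overlap the core in Srxn1. Gclm holds the core as GCACCGTCA at position -134. The Srxn1 window is chr2:152105274-152105573 on the + strand, and the Gclm window chr3:122245307-122245606 on the + strand.
Srxn1: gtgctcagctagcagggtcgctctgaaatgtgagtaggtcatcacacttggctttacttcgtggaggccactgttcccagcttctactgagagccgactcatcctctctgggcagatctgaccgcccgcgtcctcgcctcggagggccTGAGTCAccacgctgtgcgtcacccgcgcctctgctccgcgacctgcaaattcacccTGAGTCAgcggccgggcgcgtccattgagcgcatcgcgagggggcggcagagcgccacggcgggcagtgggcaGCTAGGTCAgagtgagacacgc
Gclm: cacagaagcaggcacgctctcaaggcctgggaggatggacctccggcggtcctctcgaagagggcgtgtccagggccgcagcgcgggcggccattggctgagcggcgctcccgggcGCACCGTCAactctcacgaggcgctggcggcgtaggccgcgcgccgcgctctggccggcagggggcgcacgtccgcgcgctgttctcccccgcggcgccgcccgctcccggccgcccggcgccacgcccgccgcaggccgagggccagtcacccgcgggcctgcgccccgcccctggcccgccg

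In the other matching windows the core read TGACTCCGC in Nfe2l2, at position -240, and GCTTTGTCA in Txnrd1, at position -92. The windows of Txnip, Nqo1, Slc7a11 and Keap1 held neither the core nor the AP-1 motif. The E-box CACGTG, searched on both strands and found in 7.15% of all windows, was in no member's window. A match of letters is a description of the window and not a binding site. Elements outside these windows, or spelled otherwise, were not searched for.

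Txnip, the inhibitor of thioredoxin, had the largest change of the 10 genes at 0 h. Its level in CIE mice at 0 h ran 9.13 at the lowest, 9.54 at the median and 9.95 at the highest, against 8.30, 8.78 and 8.94 in Ctrl mice. Every CIE mouse thus lay above every Ctrl mouse, as did those of 1.63% of all genes in either direction. The means were 9.56 ± 0.31 in CIE and 8.73 ± 0.23 in Ctrl (SD, n = 6 each), a log2 change of 0.83 (SE 0.12), or 1.78-fold, with an adjusted p of 2.1e-05. At 8 h the CIE mice ran 9.16, 9.31 and 9.53 and the Ctrl mice 8.59, 8.71 and 9.05, once more without overlap. The change at 8 h was 0.57 (SE 0.12), or 1.48-fold, with an adjusted p of 0.00161. In a fit of the 12 arrays of 0 h alone, the adjusted p for Txnip at 0 h was 0.02.

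By 72 h the Txnip groups overlapped, at 8.82 ± 0.18 in CIE and 8.89 ± 0.18 in Ctrl mice (SD, n = 6 each), with a change of -0.07 (95% interval -0.31 to 0.16, adjusted p = 0.917). The effect of CIE at 72 h was 0.90 log2 units below that at 0 h, a difference of -0.90 (SE 0.16, adjusted p = 0.00775), where 0.0275% of all genes passed. That call was lost without any 1 of 15 of the 24 mice, with adjusted p-values between 0.00139 and 0.0223 over all 24 omissions, in a fit of the compared groups only (adjusted p = 0.0297), with the array set as a block in a fit without Ctrl 0 h mouse 2 (adjusted p = 0.0216), and with the mean over the probe sets of the gene (-0.61, adjusted p = 0.0366). At 7 d the means were 9.07 ± 0.25 in CIE and 8.84 ± 0.13 in Ctrl, with a change of 0.23 (95% interval -0.01 to 0.46, adjusted p = 0.262).

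Srxn1 encodes sulfiredoxin, which repairs peroxiredoxins that have been over-oxidized. At 0 h its level in CIE mice ran 9.68, 9.79 and 9.89 (lowest, median and highest), against 9.25, 9.37 and 9.68 in Ctrl mice. The groups did not overlap, although the lowest CIE mouse and the highest Ctrl mouse nearly met. The change was 0.38 (SE 0.07), or 1.31-fold, with an adjusted p of 0.000408. At 8 h the CIE mice ran 9.65, 9.88 and 9.97 and the Ctrl mice 9.35, 9.40 and 9.70, and of the 36 possible pairings between CIE and Ctrl mice 35 were higher in CIE. The 8 h change was 0.40 (SE 0.07), or 1.32-fold, with an adjusted p of 0.000117. In a fit of the 12 arrays of 0 h alone, the adjusted p for Srxn1 at 0 h was 0.0414.

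In the probe set followed, the effect of CIE on Srxn1 at 7 d differed from that at both early harvests, which the test called for no other member. Its level at 7 d was 9.15 ± 0.09 in CIE and 9.30 ± 0.13 in Ctrl mice (SD, n = 6 each), a change of -0.15 (SE 0.07, adjusted p = 0.183), with 5 of 36 pairs higher in CIE. The CIE effect at 7 d lay below that at 0 h by a log2 difference of -0.53 (SE 0.09, adjusted p = 0.00269) and below that at 8 h by -0.55 (SE 0.09, adjusted p = 0.0024). Over all genes, 0.066% passed the first of these tests and 0.0715% the second. In fits of the compared groups only, neither passed (adjusted p = 0.0606 against 0 h and 0.0233 against 8 h). Among the other Srxn1 probe sets, 1451680_at passed against 8 h (-0.75, adjusted p = 2.46e-05) but not against 0 h (-0.39, adjusted p = 0.0933). Neither difference passed for 1425351_at (adjusted p = 0.534 against 0 h and 0.0557 against 8 h) or 1419942_at (0.851 and 0.156). At 72 h the level was 9.42 ± 0.06 in CIE and 9.27 ± 0.09 in Ctrl, with 34 of 36 pairs higher in CIE and an adjusted p of 0.442 for the change of 0.15.

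The 4 probe sets of Srxn1 did not give the same picture at 0 h. At that harvest the probe set followed above (1426875_s_at) rose by 0.38, where 1.92% of all probe sets passed, while the values were 0.09 for 1451680_at (adjusted p = 0.555), 0.17 for 1425351_at (adjusted p = 0.31) and -0.05 for 1419942_at (adjusted p = 0.731). At 8 h 3 of the 4 passed, with 1451680_at at 0.45 (adjusted p = 6.78e-05) and 1425351_at at 0.43 (adjusted p = 0.00183), where 2.15% of all probe sets passed. At 7 d 1451680_at was lower in CIE, at 7.78 ± 0.11 against 8.08 ± 0.20 in Ctrl (SD, n = 6 each), a change of -0.31 (SE 0.07, adjusted p = 0.0085), where 1.34% of all probe sets passed. With the mean over the 4 probe sets, Srxn1 did not pass at 0 h (0.15, adjusted p = 0.0313). The second probe set of Txnip, 1415997_at, had values of 0.41 at 0 h (adjusted p = 0.022) and 0.45 at 8 h (adjusted p = 0.0131), short of the threshold at both.

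**Figure D2:**
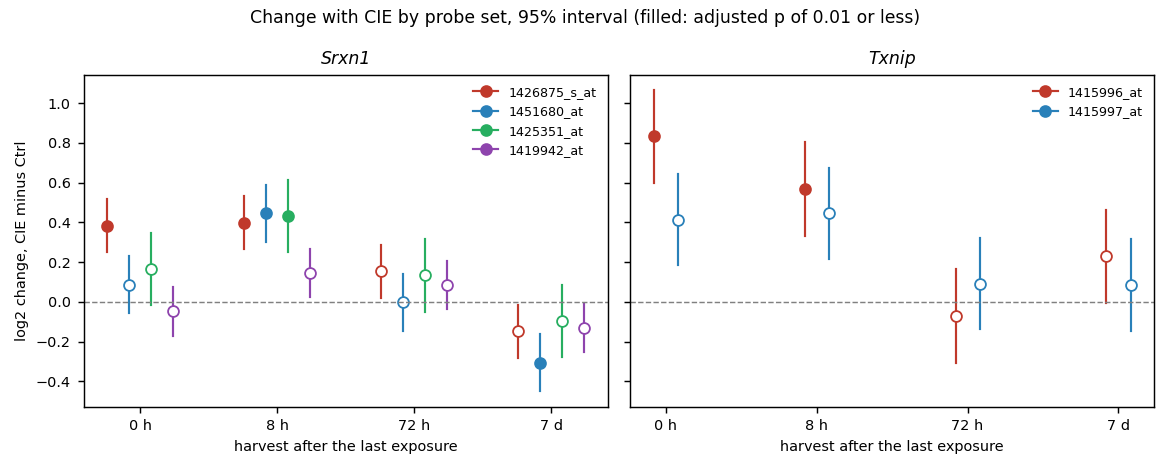
Log2 change, CIE minus Ctrl, with its 95% interval for the 4 probe sets of Srxn1 and the 2 of Txnip at each harvest, n = 6 mice per group (filled points passed at an adjusted p of 0.01 or less). For Srxn1 3 of 4 probe sets passed at 8 h and 1 at 0 h, and 1451680_at lay below 0 at 7 d.

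Gclc and Gclm encode the catalytic and the modifier subunit of glutamate-cysteine ligase, the enzyme that sets the rate of glutathione synthesis. Gclc in CIE mice at 8 h ran 10.78, 10.83 and 10.85 (lowest, median and highest), against 10.40, 10.54 and 10.62 in Ctrl mice. The groups did not overlap, and the CIE mice lay close together, with an SD of 0.03 against 0.09 in Ctrl. The change of Gclc was 0.29 (SE 0.06), or 1.23-fold, with an adjusted p of 0.00106. Gclm in CIE mice at 8 h ran 10.53, 10.55 and 10.63, against 10.09, 10.34 and 10.47 in Ctrl mice. These groups did not overlap either, as was the case for 4 of the 10 members at 8 h (Txnip, Gclc, Gclm and Nfe2l2) and for 3.62% of all genes. The change of Gclm was 0.23 (SE 0.06), or 1.17-fold, with an adjusted p of 0.00694.

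The Gclm call at 8 h was lost without any 1 of 10 of the 12 mice, with a highest adjusted p of 0.0366. It was lost too with the array set as a block, in a fit that leaves out Ctrl 0 h mouse 2 (adjusted p = 0.0176), and in a fit of the 12 arrays of 8 h alone (adjusted p = 0.0411). At 0 h neither subunit passed. The values were 0.16 for Gclc (adjusted p = 0.1) and 0.18 for Gclm (adjusted p = 0.0459). At 72 h Gclm was at 10.19 ± 0.07 in CIE and 10.32 ± 0.06 in Ctrl mice (SD, n = 6 each), with 2 of 36 pairs higher in CIE and a change of -0.13 that did not pass (adjusted p = 0.432). At 7 d the changes were -0.01 for both genes, with 95% intervals of -0.13 to 0.10 for Gclc and -0.12 to 0.11 for Gclm. The second probe sets of the subunits did not pass at 8 h, with 0.16 for Gclc (adjusted p = 0.153) and 0.27 for Gclm (adjusted p = 0.0259).

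Slc7a11 encodes xCT, the transporter that imports cystine, from which the cysteine of glutathione is drawn. At 8 h its level in CIE mice ran 7.07, 7.26 and 7.57 (lowest, median and highest), against 6.60, 6.80 and 7.11 in Ctrl mice. Of 36 pairs, 35 were higher in CIE, and the change of 0.48 (SE 0.12), or 1.4-fold, fell just short of the threshold (adjusted p = 0.0103). At 7 d the CIE mice ran 6.69, 6.82 and 7.28 and the Ctrl mice 6.14, 6.42 and 6.62. These groups did not overlap, as was the case for 1.35% of all genes, yet the change of 0.49 (SE 0.12) had an adjusted p of 0.0127. Between these harvests, at 72 h, the means were 6.69 ± 0.09 in CIE and 6.69 ± 0.21 in Ctrl (SD, n = 6 each), with a 95% interval of -0.24 to 0.24 for the change. The second probe set, 1443536_at, did not pass either, with -0.45 at 0 h (adjusted p = 0.187), 0.57 at 8 h (adjusted p = 0.0888) and 0.23 at 7 d (adjusted p = 0.581).

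Nqo1, a quinone reductase that takes its electrons from NADH or NADPH, had positive changes at all 4 harvests, none past the threshold in a single one. They were 0.26 at 0 h (adjusted p = 0.0878), 0.21 at 8 h (adjusted p = 0.208), 0.19 at 72 h (adjusted p = 0.509) and 0.36 at 7 d (adjusted p = 0.017). At 7 d the CIE mice ran 7.23, 7.33 and 7.59 (lowest, median and highest) and the Ctrl mice 6.76, 7.06 and 7.19, without overlap. Without Ctrl 7 d mouse 70, Nqo1 and Slc7a11 both passed at 7 d, with adjusted p-values of 0.00759 and 0.00733. In Ctrl mice Nqo1 was lower at 7 d than at 0 h, at 7.00 ± 0.19 at 7 d against 7.45 ± 0.16 at 0 h (SD, n = 6 each), a change of -0.45 (SE 0.09, adjusted p = 0.00761) in a comparison where 0.264% of all genes passed. That last call was lost without any 1 of 9 of the 12 mice, with a highest adjusted p of 0.0417, in a fit of the compared groups only (adjusted p = 0.241) and with the array set as a block in a fit without Ctrl 0 h mouse 2 (adjusted p = 0.0263).

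Markers of other cells also differed between the groups. At 7 d limma called 1.03% of all genes, and 18.7% had an unadjusted p under 0.05. Of 5 choroid plexus markers 1 passed, Kl, higher in CIE by 1.05 (2 at an unadjusted p under 0.05). The summed level of the 5 ran 10.5 to 12.0 in CIE and 8.40 to 10.9 in Ctrl mice (log2 scale). Of 7 microglial markers measured 1 passed, Tmem119, higher by 0.40 (4 at an unadjusted p under 0.05). Their sums were 13.0 to 13.4 in CIE and 12.9 to 13.2 in Ctrl. Of 4 striatal markers measured 1 passed, Drd1, lower in CIE by a change of -1.43 (3 at an unadjusted p under 0.05). Their sums were 11.0 to 11.8 in CIE and 11.2 to 13.0 in Ctrl. The 4 meningeal markers had a median change of 0.57 with 0 past the limma threshold (3 at an unadjusted p under 0.05), and sums of 9.59 to 10.9 in CIE and 9.23 to 9.96 in Ctrl. The 7 astrocyte markers had a median change of 0.18 with 0 past the limma threshold (5 at an unadjusted p under 0.05), and sums of 15.1 to 15.4 in CIE and 14.9 to 15.3 in Ctrl. The 5 endothelial markers measured had a median change of 0.21 with 0 past the limma threshold (1 at an unadjusted p under 0.05). Their sums were 11.2 to 12.2 in CIE and 11.3 to 12.0 in Ctrl. The part of these cells in the 7 d values of Slc7a11 and Nqo1 was not tested. At 0 h the choroid plexus marker Otx2 was lower in CIE (change -1.21, 1 of 5 markers past the threshold). Sums of the 5 ran 9.68 to 11.6 in CIE and 9.47 to 11.8 in Ctrl. Otx2 was dim, with a percentile of 9.65 among probe set means. Its Ctrl mice were widely spread, at 4.92 ± 1.34 against 3.71 ± 0.13 in CIE (SD). The microglial markers at 0 h had 0 of 7 past the limma threshold (4 at an unadjusted p under 0.05), a median change of 0.19 and sums of 13.0 to 13.4 in CIE and 12.8 to 13.2 in Ctrl. At 8 h they had 0 of 7 past it (3 at an unadjusted p under 0.05), with sums of 13.0 to 13.4 in CIE and 13.0 to 13.3 in Ctrl. The 4 oligodendrocyte markers measured at 8 h had 0 past it (2 at an unadjusted p under 0.05), a median change of 0.16 and sums that averaged 14.37 in CIE and 14.22 in Ctrl, with overlapping ranges that reached 14.48 in CIE and 14.41 in Ctrl. At 8 h the astrocyte transporter Slc1a2 was higher by 0.20 (1 of 7 astrocyte markers), with sums of 15.1 to 15.3 in both groups. The 4 blood markers measured at 8 h had 0 past the limma threshold (2 at an unadjusted p under 0.05) and sums of 6.81 to 7.18 in CIE and 7.18 to 7.24 in Ctrl, and the 5 neuronal ones had 0 past it (3 at an unadjusted p under 0.05) and sums of 15.11 to 15.15 in CIE and 14.97 to 15.10 in Ctrl. The blood ranges did not overlap before rounding (7.1819 at the highest in CIE, 7.18424 at the lowest in Ctrl), nor did the neuronal ones. The blood markers were dim, with percentiles of 20.0 to 42.8 among probe set means. The share of all genes at an unadjusted p under 0.05 is not given here for 0 h and 8 h, so these marker counts cannot be judged against it. The part of any of these cells in the 0 h and 8 h values was not tested.

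Txnrd1, the cytosolic thioredoxin reductase, and Hmox1, the enzyme that degrades heme, did not pass at any harvest. For Txnrd1 no difference between harvests in the effect of CIE passed. By size alone its largest change was at 72 h. There the CIE mice ran 9.88, 9.91 and 9.98 (lowest, median and highest) and the Ctrl mice 9.60, 9.70 and 9.76, without overlap, as was the case for 1.18% of all genes. The change of 0.22 (SE 0.06, 95% interval 0.09 to 0.35) had an adjusted p of 0.182. The 2 other probe sets of Txnrd1, whose means had percentiles of 33.0 and 5.89 among all probe sets, gave -0.04 and -0.08 at 72 h, and -0.41 (adjusted p = 0.0764) and -0.20 (adjusted p = 0.0742) at 7 d. Hmox1 had its highest value at 8 h, a change of 0.28 (95% interval 0.09 to 0.48, adjusted p = 0.0756), with levels of 6.29 ± 0.19 in CIE and 6.01 ± 0.19 in Ctrl mice (SD, n = 6 each). At 0 h, 72 h and 7 d its changes were between -0.11 and -0.08.

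Neither Nfe2l2, which encodes NRF2, nor its sensor Keap1 passed at a single harvest. Nfe2l2 ran 8.92, 8.95 and 9.13 (lowest, median and highest) in CIE mice at 8 h and 8.53, 8.69 and 8.84 in Ctrl mice. The groups did not overlap, yet the change of 0.30 (SE 0.10) had an adjusted p of 0.0645. Its changes at the other harvests were 0.18 at 0 h, 0.03 at 72 h and 0.23 at 7 d. Keap1 had a change of 0.14 at 0 h (SE 0.04, adjusted p = 0.0457), with 9.72 ± 0.07 in CIE and 9.58 ± 0.09 in Ctrl mice (SD, n = 6 each). From 8 h on its changes lay between -0.08 and -0.03, none past the threshold. The second probe sets of Nfe2l2 and Keap1 did not pass at any harvest either, with changes of 0.02 to 0.22 for Nfe2l2 and of -0.29 to -0.05 for Keap1.

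**Figure D3:**
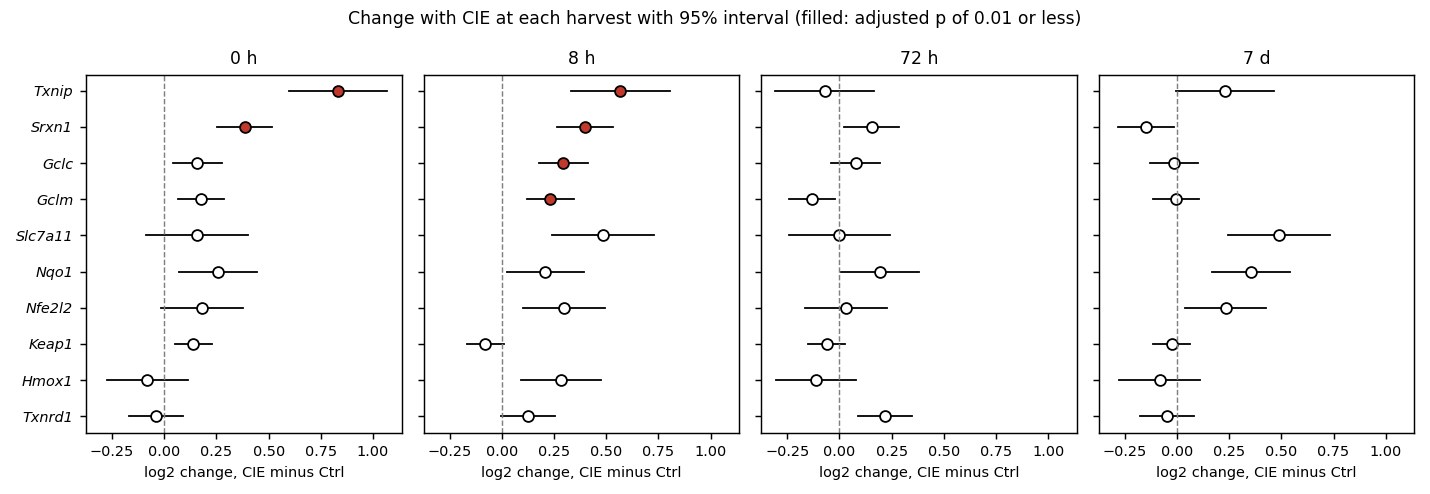
Log2 change, CIE minus Ctrl, of the 10 genes with 95% interval at each harvest, n = 6 mice per group (filled points passed at an adjusted p of 0.01 or less). Filled points are Txnip and Srxn1 at 0 h and Txnip, Srxn1, Gclc and Gclm at 8 h, and none at 72 h or 7 d.

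Over the whole time course, 6 of the 10 genes passed an F test of the 4 CIE against Ctrl contrasts, against 6.23% of all genes. They were Srxn1 (adjusted p = 1.25e-06), Txnip (1.58e-06), Gclc (0.000994), Slc7a11 (0.00108), Gclm (0.00122) and Nqo1 (0.00156). The second probe sets of Gclc (adjusted p = 0.348), Slc7a11 (0.0661) and Gclm (0.0196) did not pass the F test, while that of Txnip did (0.00264). For Srxn1 the probe sets 1451680_at and 1425351_at passed it and 1419942_at did not (0.087). The effect of CIE averaged over the 4 harvests was positive and past the threshold for 6 genes, against 5.99% of all genes in that direction. These were Txnip (0.39, SE 0.06, adjusted p = 4.78e-06), Slc7a11 (0.28, SE 0.06), Nqo1 (0.25, SE 0.05), Srxn1 (0.20, SE 0.03), Nfe2l2 (0.18, SE 0.05) and Gclc (0.13, SE 0.03). Gclm passed the F test but not the test of the averaged effect (0.07, SE 0.03, adjusted p = 0.08), and Nfe2l2 did the reverse. The averaged effect of Nfe2l2 had an adjusted p of 0.00517, and of 0.0173 with the array set as a block in a fit without Ctrl 0 h mouse 2. For Slc7a11 the averaged effect did not pass in the mean of its 2 probe sets (0.19, adjusted p = 0.0286).

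In CIE mice alone the later harvests were lower than 0 h for several members, in comparisons that share the 0 h mice. At 72 h 3 of 10 were lower and 0 higher, against 0.649% of all genes lower. They were Txnip (change -0.75, SE 0.12), Srxn1 (-0.37, SE 0.07) and Gclm (-0.35, SE 0.06), with every 72 h mouse below every 0 h mouse for each, as for 1.15% of all genes. The same order held for Gclc, whose change did not pass (-0.20, adjusted p = 0.0501). Txnrd1 had the opposite order, narrowly, with a lowest value of 9.87809 at 72 h and a highest of 9.8776 at 0 h. Its change did not pass either. At 7 d Srxn1 (-0.64, SE 0.07, adjusted p = 1.37e-08) and Gclm (-0.38, SE 0.06, adjusted p = 1.76e-05) were lower, against 0.616% of all genes lower. At 8 h the limma test called 0 of 10 members, against 2.95% of all genes. At an unadjusted p under 0.05 there were 4 members, with no share of all genes taken at that cut. Ctrl mice over the same intervals gave changes for Srxn1 of -0.14 at 72 h and -0.11 at 7 d and for Gclm of -0.05 and -0.20, none past the threshold. In Ctrl mice limma called 0 of 10 members at 8 h, against 0.456% of all genes, and 0 of 10 at 72 h, against 0.445%. An unadjusted p under 0.05 was reached by 1 member at 8 h and 2 at 72 h, again with no such share of all genes taken.

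Between other pairs of harvests the effect of CIE differed for no member by limma. Limma called 0 members and 0.033% of all genes for 8 h minus 0 h. For 72 h minus 8 h it called 0 and 0.011%, and for 7 d minus 72 h 0 and 0%. At an unadjusted p under 0.05 there were, in the same order, 2, 6 and 3 members. The share of all genes at that cut was not taken for these differences, so these counts cannot be judged against it. The nearest to the threshold was Gclm, whose effect at 72 h lay below that at 8 h by a difference of -0.36 (SE 0.08, adjusted p = 0.0357).

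The order of the 8 group means shows where each gene's groups part. For Txnip the order ran Ctrl 0 h, Ctrl 8 h, CIE 72 h, Ctrl 7 d, Ctrl 72 h, CIE 7 d, CIE 8 h and CIE 0 h, the highest. Of the steps between neighbors in the Txnip order, only that between CIE 7 d and CIE 8 h, of 0.26, exceeded the pooled SD of the groups it joins, 0.20. For Srxn1 the lowest group was CIE 7 d and the highest were CIE 8 h and CIE 0 h, with CIE 0 h 0.33 above Ctrl 8 h, the next group down (pooled SD 0.11). For Gclc and Gclm the 2 highest groups were CIE 8 h and CIE 0 h, which differed from each other by less than their spread. For Nqo1 and Slc7a11 the lowest group was Ctrl 7 d, below the next group by 0.27 for Nqo1 (pooled SD 0.18) and 0.28 for Slc7a11 (pooled SD 0.16).

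Within a set of arrays 1 CIE and 1 Ctrl mouse of each harvest can be set side by side. At 0 h, when 5 sets had both mice, Txnip and Srxn1 were higher in CIE in 5 of 5. The differences were 0.71 to 1.65 for Txnip and 0.23 to 0.64 for Srxn1. Keap1 was higher in CIE in 5 of 5 too, by 0.11 to 0.25. The 0 h counts leave out CIE mouse 72, which had the lowest Keap1 level of the CIE mice (9.60), and Ctrl mouse 2 (9.67). With these mice the Keap1 groups overlapped, as the Ctrl mice reached 9.69. At 8 h Txnip, Gclc, Gclm, Slc7a11, Nqo1, Nfe2l2 and Hmox1 were each higher in the CIE mouse in 6 of 6 sets, and Srxn1 in 5 of 6. At 72 h Txnrd1 was higher in CIE in 6 of 6 sets and Gclm in 1 of 6. At 7 d Slc7a11 and Nqo1 were higher in CIE in 6 of 6 sets and Srxn1 in 2 of 6. Where groups do not overlap, the sign in every set is fixed, and the count is no separate support. This holds for Txnip and Srxn1 at 0 h, and for Txnip, Gclc, Gclm and Nfe2l2 at 8 h. It also holds for Txnrd1 at 72 h and for Slc7a11 and Nqo1 at 7 d.

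**Figure D4:**
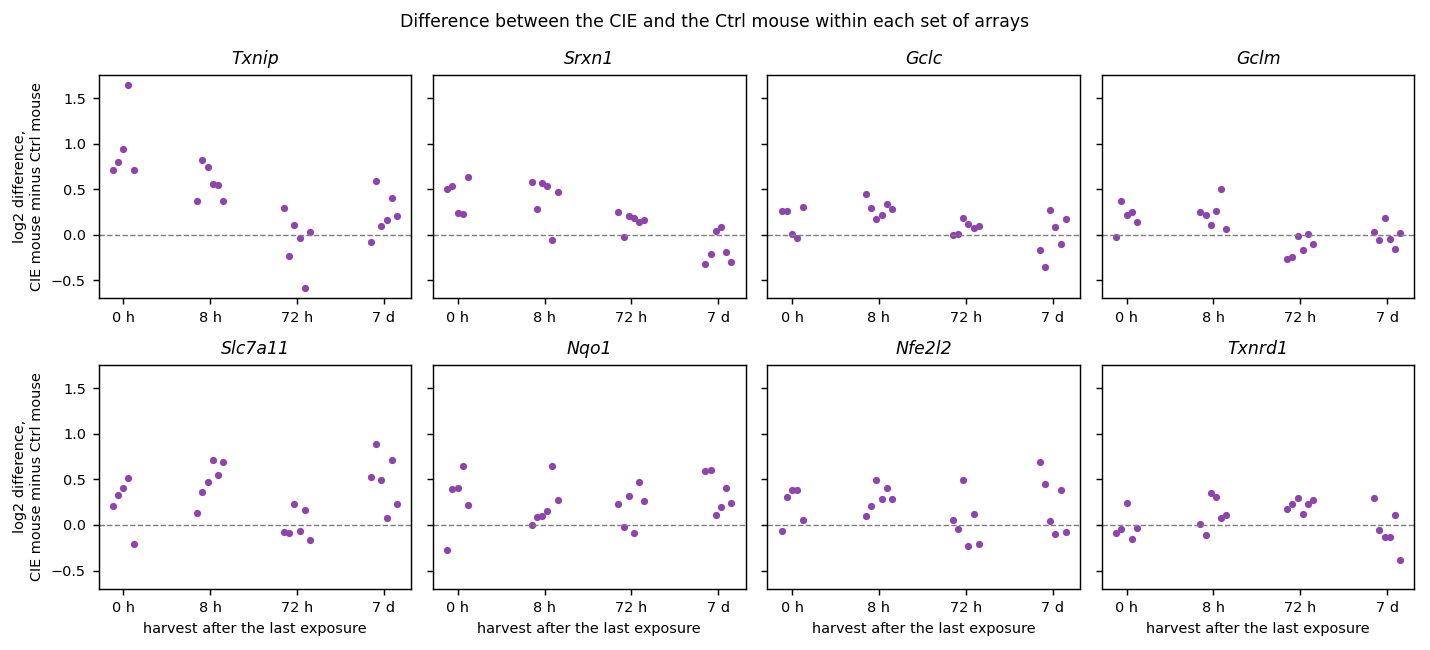
Log2 difference, CIE mouse minus Ctrl mouse, within each set of arrays (points, 5 sets at 0 h and 6 at each later harvest) for 8 of the genes. All points of Txnip lie above 0 at 0 h and 8 h, and all points of Slc7a11 and Nqo1 lie above 0 at 7 d. The groups of these genes do not overlap at those harvests, which fixes these signs.

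Some related genes rose beside the members. Of 78 other genes of the pathway and its neighbors 73 were measured, in 9 groups by role. These lists were chosen with earlier results of these data known, so the shares that follow are a description. At 0 h 3 rose (4.11%, against 1.64% of all genes), and at 8 h 5 rose (6.85%, against 2.29%). At 72 h 0 passed, against 0.0055% of all genes. At that harvest 5 of the 73 had an unadjusted p under 0.05, as did 7.57% of all genes. At 7 d 2 rose (2.74%, against 1.03%), and none was lower at any harvest by limma. Among 8 relatives and regulators of TXNIP, the arrestin-domain genes Arrdc2 and Arrdc4 rose at 0 h. Arrdc2 was at 7.33 ± 0.38 in CIE and 6.53 ± 0.20 in Ctrl mice (SD, n = 6 each), a change of 0.81 (SE 0.13, adjusted p = 0.000226), and rose at 8 h by 0.82 (SE 0.13, adjusted p = 7.6e-05). Arrdc4 was at 8.15 ± 0.38 in CIE and 7.33 ± 0.25 in Ctrl at 0 h, a change of 0.82 (SE 0.17, adjusted p = 0.00298), and did not pass at 8 h (0.28, adjusted p = 0.411).

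Among 10 other NRF2 targets and detoxifying enzymes, Ephx1 and Aox1 rose. Ephx1, the microsomal epoxide hydrolase, rose by 0.40 at 0 h (SE 0.09, adjusted p = 0.0069). Aox1, an aldehyde oxidase, rose by 0.50 at 8 h (adjusted p = 0.00932) and by 0.54 at 7 d (adjusted p = 0.00728). Of 11 regulators and partners of NRF2, the small MAF gene Maff rose at 8 h by 0.36 (SE 0.08, adjusted p = 0.00563). Of 7 thioredoxins, reductases and peroxiredoxins measured, the mitochondrial peroxiredoxin Prdx3 rose at 8 h by 0.20 (SE 0.04, adjusted p = 0.00169). In the ATF4 group of 6 genes, Atf4 itself, a stress transcription factor that also acts on Slc7a11, rose at 8 h by 0.29 (SE 0.07, adjusted p = 0.00602). Of 16 genes of cysteine supply and glutathione use, Gpx8, a peroxidase of the endoplasmic reticulum, rose at 7 d by 0.49 (SE 0.11, adjusted p = 0.00766). The groups for NADPH supply (5 measured), heme and iron (6 measured) and superoxide and catalase (5 measured) had 0 genes past the limma threshold at any single harvest (at most 2 of a group at an unadjusted p under 0.05), with medians between -0.12 and 0.03.

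**Figure D5:**
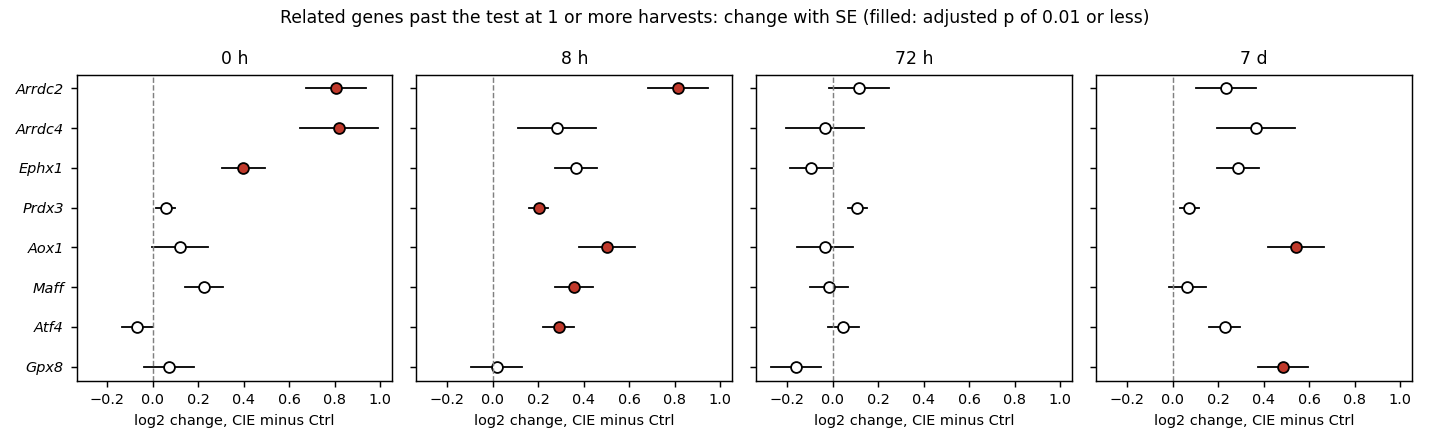
Log2 change, CIE minus Ctrl, with SE at each harvest for the 8 related genes that passed at 1 or more harvests, n = 6 mice per group (filled points passed at an adjusted p of 0.01 or less). Arrdc2 and Arrdc4 stand highest at 0 h, 0.81 and 0.82, and no point is filled at 72 h.

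The genes most alike in pattern were sought by Pearson correlation over the 48 arrays, which share treatment and harvest, so the values are given as a description. Txnip was most like Acsl3 (r = 0.84), Arrdc2 (0.82) and Tsc22d3 (0.80), which within groups correlated with it at 0.64, 0.50 and 0.60. Srxn1 was most like Atf5 (0.82), Cd74 (0.81) and Paip2b (0.81), with 0.14, 0.15 and 0.44 within groups. Gclm was most like Ephx1 (0.82), Nupr1 (0.82) and Cdk2ap2 (0.81), and Gclc most like Ubl3, Srxn1 and Pik3r1 (0.73 each). Slc7a11 was most like Selenbp1 (0.83), Pnpla7 (0.82) and Tifa (0.82), and Nqo1 most like Synpo2 (0.86), Dmp1 (0.85) and Prodh (0.85). Among the 45 pairs of members the median r was 0.31, and 0.12 within groups. The closest pair was Nqo1 and Slc7a11 (0.75, and 0.53 within groups) and the most opposed Txnrd1 and Keap1 (-0.30).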

How the data were processed

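Total RNA of the hippocampus of each mouse was isolated with the RNeasy Mini Kit and hybridized to 1 Affymetrix mouse genome array. The deposited values are log2 expression per probe set, which the authors made by RMA summarization within hybridization batches, quantile normalization over all arrays and ComBat batch adjustment. Hybridization batches are not given in the labels. Of 45037 probe sets, the platform annotation gave 34945 a single symbol, 932 several and 9160 none.

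From these values a mean per group was fitted over all 48 arrays in limma 3.58.1 (R 4.3.3) with empirical Bayes moderation. The p-values were adjusted over all probe sets by the Benjamini-Hochberg method, and an adjusted p of 0.01 or less was the threshold, with intervals at 95%. No filter on dim probe sets was applied. The number of arrays limits the precision. The labels number individual mice, and p-values measure the spread between them.

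The members and gene lists were chosen with earlier results of these data known. Named genes are the members, the list genes past the threshold in a CIE against Ctrl comparison, and the 3 genes most correlated with each member that passed such a comparison or the F test. The script was tested on simulated data. Alternatives were another prior variance (intensity trend, robust), further quantile normalization, probe sets with a mean log2 of at least 6 only, the mean over all probe sets of a gene, a threshold of 0.05, the array set as a block, a fit of the compared groups only, and leaving out each mouse in turn. Promoter windows were read from RefSeq (GRCm38.p6), and figures were drawn with matplotlib.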

Additional observations from a re-analysis of the deposited data

Results flagged for a closer look

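One mouse stood apart from its group in the 80 groups checked (10 genes in 8 groups of 6 mice), where chance marks about 1 group in 20. For Slc7a11 at 72 h, CIE mouse 35 had a log2 level of 6.86, with the nearest of the other 5 mice at 6.70 and the lowest at 6.62, so its gap made up 0.683 of the range. The change of Slc7a11 at that harvest did not pass.

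The effect of CIE differed between harvests, by a test of the difference itself, in 3 of the comparisons made. For Txnip the effect at 72 h minus that at 0 h was -0.90 (SE 0.16, adjusted p = 0.00775), a call lost under 3 of the alternatives and without any 1 of 15 of the 24 mice. For Srxn1 the effect at 7 d minus that at 0 h was -0.53 (SE 0.09, adjusted p = 0.00269), and the effect at 7 d minus that at 8 h was -0.55 (SE 0.09, adjusted p = 0.0024). There were 6 such differences tested for each gene.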

How the results depend on the processing

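No change past the threshold reversed its sign under any alternative run. Of the 34 CIE minus Ctrl changes of members that did not pass, 8 took the other sign under an alternative other than leaving out a mouse. With the mean over probe sets these were Slc7a11 at 0 h (-0.15, 0.16 before), Keap1 at 0 h (-0.06, 0.14 before), Txnrd1 at 8 h (-0.04, 0.13 before), Txnip and Slc7a11 at 72 h (0.01 and 0.04) and Gclc and Gclm at 7 d (0.00 and 0.08), and with the array set as a block Txnrd1 at 0 h (0.00), none past the threshold. With a mouse left out, 5 did so, at sizes up to 0.06. Over all alternatives, the count of members past the threshold ran 6 to 8 for the F test, 5 to 6 for the averaged effect and 3 to 5 at 8 h, and stayed at 0 at 72 h and at 3 for CIE 72 h minus CIE 0 h. In a fit of the compared groups only, counts became 0 at 0 h (2 before), 0 for the effect at 72 h minus 0 h, 0 for 7 d minus 0 h (Srxn1, adjusted p = 0.0606), 0 for 7 d minus 8 h (Srxn1, adjusted p = 0.0233) and 0 for Ctrl 7 d minus Ctrl 0 h (Nqo1, adjusted p = 0.241), where fewer arrays estimate the spread. The F test and the averaged effect use all groups and were not refitted so. With the array set as a block, in a fit without Ctrl 0 h mouse 2, counts became 0 for the effect at 72 h minus 0 h (Txnip, adjusted p = 0.0216) and 0 for Ctrl 7 d minus Ctrl 0 h (Nqo1, adjusted p = 0.0263). With the mean over all probe sets of a gene, counts became 1 at 0 h, 0 for the effect at 72 h minus 0 h (Txnip, -0.61, adjusted p = 0.0366) and 1 for CIE 8 h minus CIE 0 h (Srxn1, 0.18, adjusted p = 0.00664). With probe sets of a mean log2 of at least 6 only, which are fewer tests, counts became 1 at 7 d (Slc7a11, adjusted p = 0.00991) and 4 for CIE 7 d minus CIE 0 h (2 before, with Txnip and Gclc added). At a threshold of 0.05, counts became 4 at 0 h, 2 at 7 d, 1 for the effect at 72 h minus 8 h (Gclm), 1 for CIE 8 h minus CIE 0 h (Hmox1) and 5 for CIE 7 d minus CIE 0 h. With each mouse left out in turn, counts ran 0 to 2 at 7 d, 0 to 1 for the effect at 72 h minus 0 h, 2 to 3 for CIE 7 d minus CIE 0 h and 0 to 1 for Ctrl 7 d minus Ctrl 0 h. Where no construction is named, the cause was not tested. No paired analysis was possible because no mouse number in the labels recurs between groups, and the array sets found in the values were used as a block instead.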
